A study of Mus musculus with 6 samples.

Results

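The 10 genes described here encode calcium-binding proteins of the S100 family: S100a1, S100a6, S100a7a, S100a8, S100a9, S100a10, S100a11, S100a14, S100a16 and S100g. They were taken by symbol from the 20483 genes of the count table, and all 10 had a row. The rule itself uses no measured value, but the list was drawn up with earlier results of these data known. The cells were primary tracheal epithelial cells of C57BL/6 mice that were 12 weeks old, differentiated at an air-liquid interface and profiled by droplet-based 3′ single-cell RNA sequencing. The WT/WT group held 3 mice (WT1, WT2 and WT3). The MIS/MIS group held 3 mice (MT1301, MT1306 and MT1383) that carried a missense allele of Dnaaf5, an assembly factor of ciliary dynein motors, on both copies of the gene, made by CRISPR editing of the germ line, with no Cre or transgene. As cultures, the samples held the cells that grow from isolated tracheal epithelium and not the cells of the airway wall.

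S100 proteins are small and most work as dimers, with a pair of EF-hand calcium-binding sites in each chain. Binding of calcium exposes a surface that holds partner proteins, among them annexins, which attach to membranes. S100a8 and S100a9 form calprotectin, a secreted antimicrobial complex best known from neutrophils, and S100g (calbindin-D9k) is a buffer that carries calcium through the cytosol of absorptive epithelia. In skin and other layered epithelia, several family members mark differentiating or stressed cells.

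In the GENCODE M21 annotation of GRCm38, 9 of the 10 genes were protein-coding genes of chromosome 3. S100a1 lay on the minus strand at chr3:90511034-90514392. S100a14 (chr3:90526856-90528837) and S100a16 (chr3:90537254-90543151) followed on the plus strand, with 8416 bases between them. S100a6 (chr3:90612882-90624181), S100a7a (chr3:90654017-90658669) and S100a8 (chr3:90668978-90670035) were also on the plus strand, and S100a9 (chr3:90692632-90695721) was on the minus strand, so that S100a1 to S100a9 spanned 184.7 kb. S100a11 (chr3:93520488-93526287) and S100a10 (chr3:93555080-93564643), both on the plus strand, lay apart, beginning 2824.8 kb beyond S100a9. S100g was on the minus strand of the X chromosome at chrX:162961992-162964599, where the plus-strand gene Ctps2 overlaps it.

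RefSeq promoter sequences (GRCm38.p6) were available for 8 of the 10 genes, with 9 promoters. The 5 windows printed here, read 5′ to 3′ on the gene's own strand, run from 120 bases before the annotated start to 20 bases from the start on. S100a1 is shown because in the GENCODE annotation it faces the neighbouring family member S100a13 across 42 bases. The RefSeq start used for its window lies farther from S100a13. S100a11 is shown because it was among the genes detected in nearly every cell. S100a8, S100a9 and S100g are shown because their UMIs lay in few cells or few cell types. Capitals mark TATAAA (the TATA box), GGGCGG (the GC box) or TGANTCA (the AP-1 site), each searched on both strands, as was CCAAT, which none of the 9 windows held.
S100a1 (chr3:90514311-90514450, minus strand): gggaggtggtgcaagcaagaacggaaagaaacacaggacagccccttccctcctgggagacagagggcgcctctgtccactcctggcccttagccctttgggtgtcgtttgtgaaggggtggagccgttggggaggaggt
S100a11 (chr3:93520376-93520515, plus strand): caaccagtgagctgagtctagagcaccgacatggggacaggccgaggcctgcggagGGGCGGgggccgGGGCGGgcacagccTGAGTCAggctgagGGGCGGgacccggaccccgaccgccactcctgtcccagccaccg
S100a8 (chr3:90668951-90669090, plus strand): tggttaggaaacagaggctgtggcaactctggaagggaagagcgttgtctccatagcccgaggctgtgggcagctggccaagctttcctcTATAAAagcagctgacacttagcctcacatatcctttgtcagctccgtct
S100a9 (chr3:90695702-90695841, minus strand): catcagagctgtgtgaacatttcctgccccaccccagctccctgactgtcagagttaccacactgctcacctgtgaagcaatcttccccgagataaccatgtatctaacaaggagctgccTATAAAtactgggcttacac
S100g (chrX:162964580-162964719, minus strand): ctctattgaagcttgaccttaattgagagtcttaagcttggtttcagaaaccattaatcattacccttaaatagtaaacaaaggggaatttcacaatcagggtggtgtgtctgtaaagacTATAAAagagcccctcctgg
TATAAA stood in 3 of the 9 windows, those of S100a8, S100a9 and S100g, against 6.88% of all 32851 promoter windows of this length. In S100a8 it lay at positions -30 to -25, counting the annotated start as 0, while in S100a9 and S100g it began at the annotated start itself. The S100a11 window held 3 matches to GGGCGG and the 1 match to TGANTCA, which 28.3% and 3.91% of all windows held. A further match to GGGCGG stood in the window of the second annotated start of S100a16. These matches describe letters and not bound sites.

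The table held 23871 cells in 16 deposited cell types, with 2673 to 6710 cells per mouse and median depths of 21328 to 35383 unique molecular identifiers (UMIs, counted transcript molecules) per cell. The lowest median was that of MT1383. The deposited types did not all carry their own markers alone. The summed level of 5 multiciliated markers, in CPM (counts scaled by the total UMIs of the same cells), was 1242 to 6453 in Multiciliated1 to Multiciliated4, and 5 neuroendocrine markers summed to 7177 CPM in the neuroendocrine cells. The summed level of 5 secretory markers, 28520 and 12310 CPM in Secretory1 and Secretory2, was 2754 CPM in Multiciliated1 and 3579 CPM in Multiciliated2, above their multiciliated sums of 1242 and 2317 CPM. It was also above the basal marker sum in Basal1 (1847 against 1688 CPM), Basal2 (4597 against 761 CPM), Basal5 (1048 against 399 CPM), Basal6 (5707 against 1746 CPM) and Basal8 (1165 against 100.2 CPM). Sums of different lists are not on a common scale, so these comparisons do not rank the identity of a type. The secretory list holds very abundant genes: Scgb3a2 and Bpifa1 had 13500 and 13690 CPM in Secretory1 and 1637 and 945 CPM in Multiciliated1. Basal4 carried the highest sum of the hillock markers Krt13, Krt4 and Krt6a, 14690 CPM, and 1048 of its 1365 cells came from WT1. Multiciliated4 was small, at 146 cells, and shallow, at 10197 UMIs in the median cell, whose mitochondrial share of 1.29% compared with 8.51% in Multiciliated3. There were 67 barcodes that occurred in more than 1 mouse, of 23804 distinct barcodes.

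S100a1, a calcium sensor best known from heart and skeletal muscle, was highest in multiciliated cells and ionocytes. Its level per mouse in Multiciliated4 was 2359, 2343, 2297, 2923 and 2504 CPM in WT1, WT3, MT1301, MT1306 and MT1383 (WT2 had under 20 such cells), with a mean of 2485 CPM ± 257 (SD, n = 5 mice). In Multiciliated3 the mean was 1208 CPM ± 110 (SD, n = 6), and in Multiciliated1 it was 858 CPM ± 87.9 (SD, n = 6). These 3 types did not overlap with each other in the values of the mice. Multiciliated2 stood apart from them at 356 CPM ± 67.8 (SD, n = 6), below both secretory types, at 638 CPM ± 107 and 636 CPM ± 70.2 (SD, n = 6 each). Basal4 was lowest at 81.0 CPM ± 23.4 (SD, n = 4), so that the levels spanned 30.7-fold. The 28 ionocytes, pooled over 3 mice, had 2785 CPM (exact Poisson 95% interval 2663 to 2912, which covers counting error only), with 3650 CPM in 2 cells of WT1, 1600 CPM in 7 cells of WT3 and 3142 CPM in 19 cells of MT1383. Of the 13 neighbouring pairs in the order of the types, 10 overlapped between mice.

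**Figure D1:**
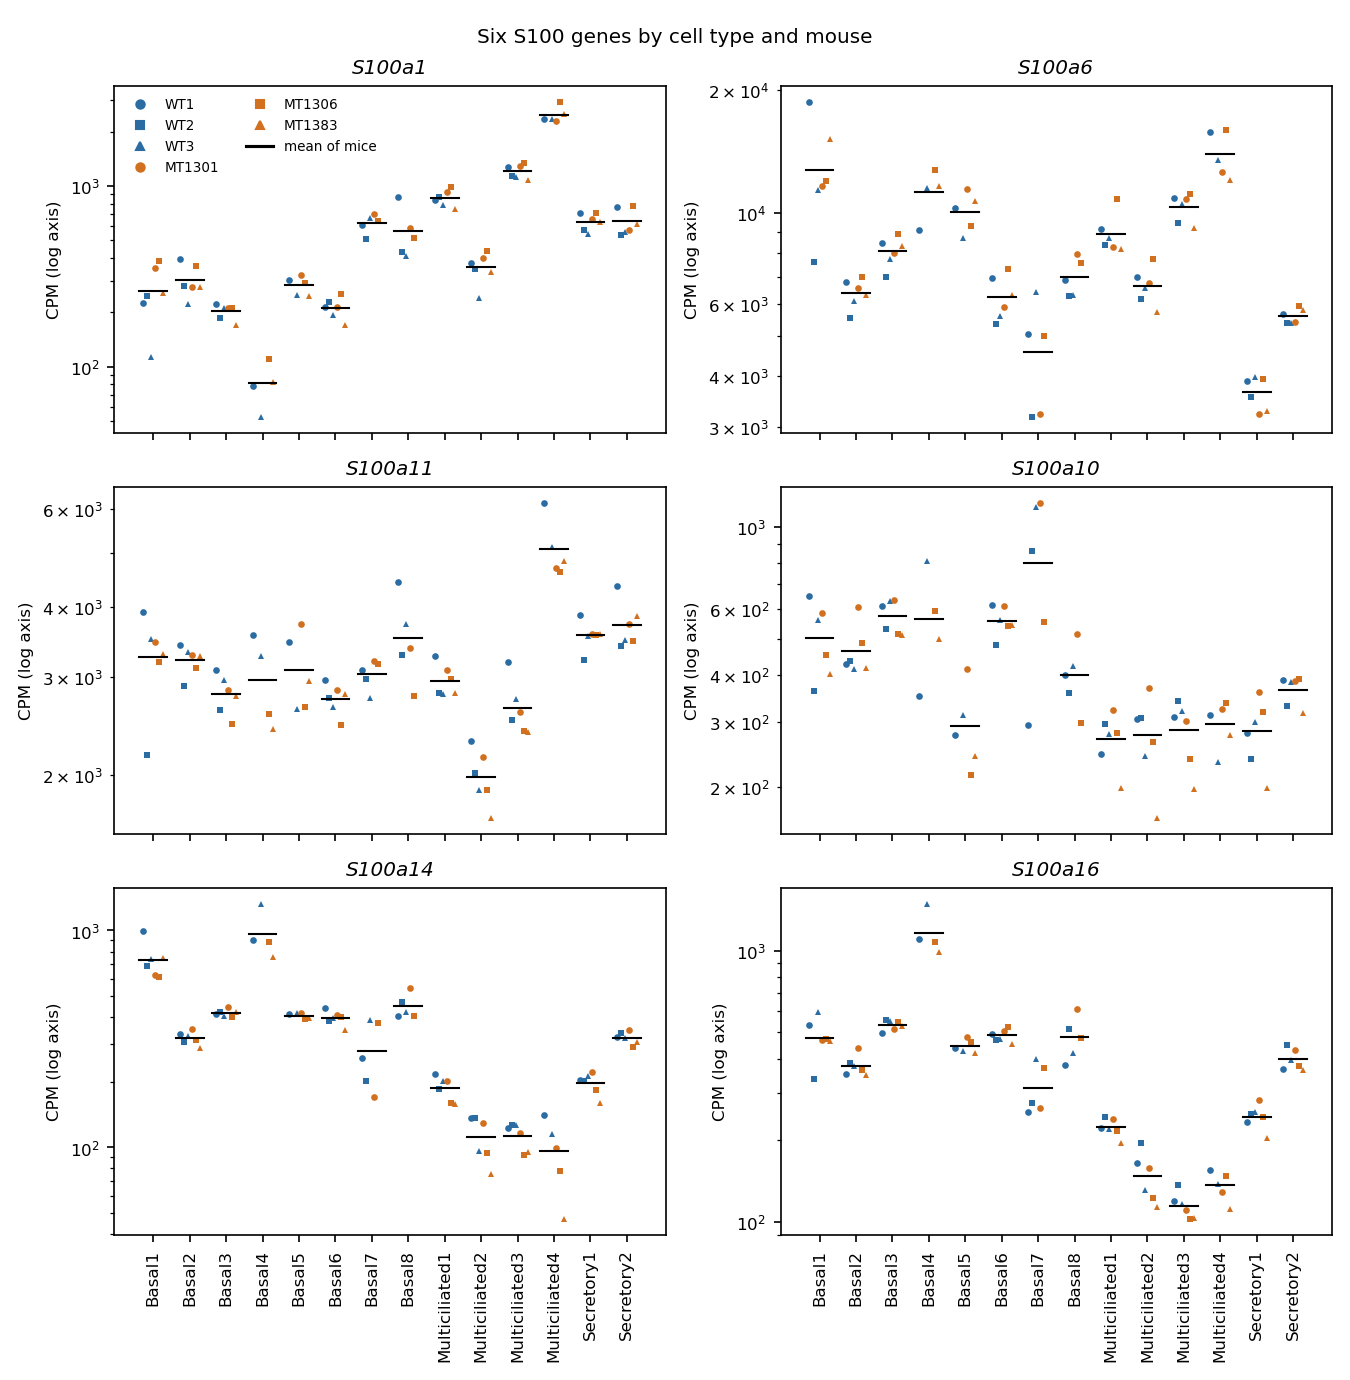
Levels of 6 S100 genes in CPM (log axes) in each mouse with at least 20 cells of a type, for 14 cell types; blue points are WT/WT mice, orange points MIS/MIS mice and black bars the mean of the mice. S100a1 is highest in Multiciliated4 (mean 2485 CPM) and lowest in Basal4 (81.0 CPM), whereas S100a14 and S100a16 are highest in Basal4 (967 and 1163 CPM).

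S100a13, whose start faces that of S100a1, is no member of the 10 genes but varied with it over the types, though not in the same order. Over all cells of a type it had 1099 CPM in ionocytes and 426 CPM in Multiciliated4, against 84.1 CPM in Multiciliated2 and 75.9 CPM in Basal4. In Secretory1 the genes parted, since it had more S100a1 than Basal8 (624 against 568 CPM) but less S100a13 (113 against 159 CPM). Pearson's r of the log2 levels of S100a1 and S100a13 over the 16 types was 0.88. The 16 points share libraries and mice, so that r is a description. For S100a14, the next gene in the same direction as S100a13, r with S100a13 was -0.76. Among 9698 genes compared, those most like S100a1 were Cox7a1 (r = 0.96), a subunit of cytochrome c oxidase, Iscu (r = 0.96), a scaffold for iron-sulfur clusters, and Ldhb (r = 0.94), a lactate dehydrogenase chain.

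**Figure D2:**
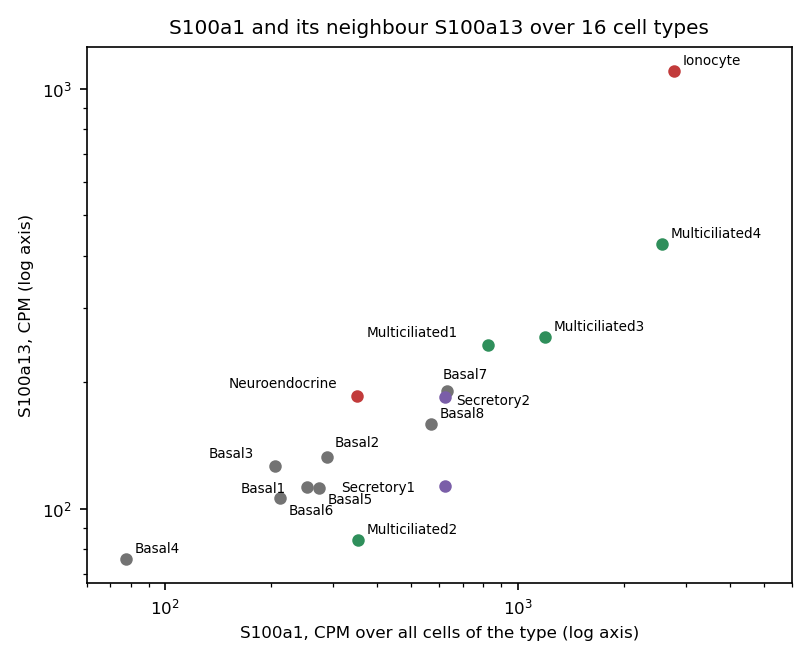
Levels of S100a1 (x axis) and of its neighbour S100a13 (y axis) in CPM over all cells of each of the 16 types, on log axes; green points are multiciliated, purple secretory, grey basal and red ionocyte and neuroendocrine types. Ionocytes and Multiciliated4 are at the upper right and Basal4 at the lower left (r = 0.88 over 16 types).

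S100a6 and S100a11, which both bind annexins, were found in nearly every cell: 99.97% of all cells had a UMI of S100a6 and 99.95% had one of S100a11. S100a6 alone made up 0.713% of all UMIs, and the 10 genes together 1.20%. The level of S100a6 was 13980 CPM ± 1812 (SD, n = 5) in Multiciliated4, 12750 CPM ± 3792 (SD, n = 6) in Basal1 and 11250 CPM ± 1535 (SD, n = 4) in Basal4, and these overlapped between mice. Secretory1 was lowest of the types with replicates, at 3647 CPM ± 332 (SD, n = 6), a 3.83-fold span. In Basal1 the mice ran from 7588 CPM in WT2 to 18730 CPM in WT1, and both were WT/WT. No pair of neighbours in the order of S100a6 separated without overlap.

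S100a11 was highest in Multiciliated4, at 6161, 5125, 4704, 4623 and 4845 CPM in WT1, WT3, MT1301, MT1306 and MT1383, and lowest in Multiciliated2, at 1983 CPM ± 223 (SD, n = 6). The Multiciliated4 values lay above every mouse of Secretory2, the next type, at 3725 CPM ± 356 (SD, n = 6). The neuroendocrine cells had 645 CPM of S100a11 (exact Poisson 95% interval 609.7 to 680.7; 163 cells) and 2035 CPM of S100a6 (1973 to 2098). For both genes this was below every type with replicates. Anxa1, a partner of S100a11, had r = 0.81 with it over the 16 types, and Anxa2 had r = 0.83 with S100a6, which put Anxa2 among the 3 genes most like S100a6. Pdlim1, a protein of actin stress fibres, led that list at r = 0.90. The gene most like S100a11 was Cblc (r = 0.93), a ubiquitin ligase of epithelia.

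S100a10 forms a tetramer with annexin A2 and does not itself bind calcium. It was highest in Basal7, where the mice differed most: 293 CPM in WT1, 862 in WT2, 1131 in WT3, 1159 in MT1301 and 554 in MT1306. Both genotypes thus had high and low mice. The other basal types averaged 293 to 574.5 CPM, the secretory types 282 and 366 CPM, and Multiciliated1 was lowest at 270 CPM ± 43.0 (SD, n = 6). In neuroendocrine cells S100a10 had 58.7 CPM (exact Poisson 95% interval 48.5 to 70.3), and 33.7% of these cells had a UMI against 95.8% of all cells. The neuroendocrine cells were shallow, at a median of 10351 UMIs, and 108 of the 163 came from MT1383. After thinning to 5000 UMIs their share was 18.4%, against 60.1% to 89.8% in the 14 types with replicates. The r of S100a10 with Anxa2 over the types was 0.36. MT1383, the mouse with the lowest depth per cell, had the lowest S100a10 level in 5 of the 5 multiciliated and secretory types that had 20 cells in each mouse. Among the basal types with 20 cells in each mouse, MT1383 was lowest in Basal3 only. The lowest mouse was WT2 in Basal1 and Basal6 and WT3 in Basal2.

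S100a14 and S100a16, neighbours on chromosome 3, were basal-weighted genes with closely similar orders. In Basal4 the level of S100a16 was 1100, 1486, 1077 and 991 CPM in WT1, WT3, MT1306 and MT1383, and that of S100a14 was 904, 1326, 881 and 757 CPM. All 4 mice lay above each mouse of Basal3, the next type for S100a16 (531 CPM ± 22.8, SD, n = 6). For S100a14 the next type was Basal1, which overlapped with Basal4 (734 CPM ± 140, SD, n = 6). At the other end S100a14 had 96.0 CPM ± 35.9 (SD, n = 5) in Multiciliated4, a 10.1-fold span, and S100a16 had 115 CPM ± 12.6 (SD, n = 6) in Multiciliated3. Their r over the types was 0.93, and S100a14 was the third most similar gene to S100a16. S100a14 itself was most like Jup (plakoglobin, r = 0.95), Trim29 (r = 0.95) and Lad1 (ladinin, r = 0.93), and Lad1 was also second for S100a16, behind Upk3bl (r = 0.93). S100a1 ran the other way, with r of -0.83 to S100a14 and -0.76 to S100a16. The Basal4 cells, where both genes led, were also those with the highest hillock marker sum, and the part of that state in both levels was not tested.

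S100g had 30790 UMIs. Multiciliated1 had a secretory marker sum of 2754 CPM, against 28520 CPM in Secretory1. Its multiciliated marker sum was 1242 CPM, against 4800 CPM in Multiciliated3. For S100g, Multiciliated1 led in each of the 6 mice. Its S100g levels were 145, 400.2 and 449 CPM in WT1, WT2 and WT3 and 336, 296 and 272 CPM in MT1301, MT1306 and MT1383. Each of these values lay above every mouse of Multiciliated3, the next type, at 64.1 CPM ± 37.1 (SD, n = 6). Multiciliated2, with a secretory marker sum of 3579 CPM and a multiciliated sum of 2317 CPM, had 22.1 CPM ± 10.1 (SD, n = 6) of S100g. Multiciliated4 had 1 UMI in its 146 cells. Secretory2 had 54.8 CPM ± 15.5 and Secretory1 had 11.5 CPM ± 1.74 (SD, n = 6 each), with no mouse of Secretory1 reaching the lowest of Secretory2.

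Within Multiciliated1 the UMIs were unevenly spread over cells. Of all cells, 23.9% had a UMI of S100g, but the 507 cells with 10 or more held 64.3% of its UMIs. Of these 507 cells, 37.1% were Multiciliated1 and 22.3% Secretory2. In Multiciliated1 17.0% of cells passed 10 UMIs, from 12.2% in WT1 to 23.5% in WT3, and the 3 MIS/MIS mice lay between them, at 18.6%, 19.5% and 15.1%. The 188 such cells had a median of 33190 UMIs in all, and the other 920 cells a median of 32400. The highest single cells held 354 UMIs (Multiciliated3) and 330 UMIs (Multiciliated1), both in MT1306. The share of cells with a UMI was 50% in Multiciliated1 and 3.48% in Basal5, a type with little of the gene, at median depths of 32469 and 22738 UMIs. Once each cell was thinned to 5000 UMIs, the shares were 26.4% in Multiciliated1 and 0.932% in Basal5. The overlapping gene Ctps2 did not follow S100g: it had 20.1 CPM in Multiciliated1 and 22.1 CPM in Multiciliated4. Whether the counting kept the strands apart is not given in the sources used here, so that some exchange of reads between these genes cannot be told apart.

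**Figure D3:**
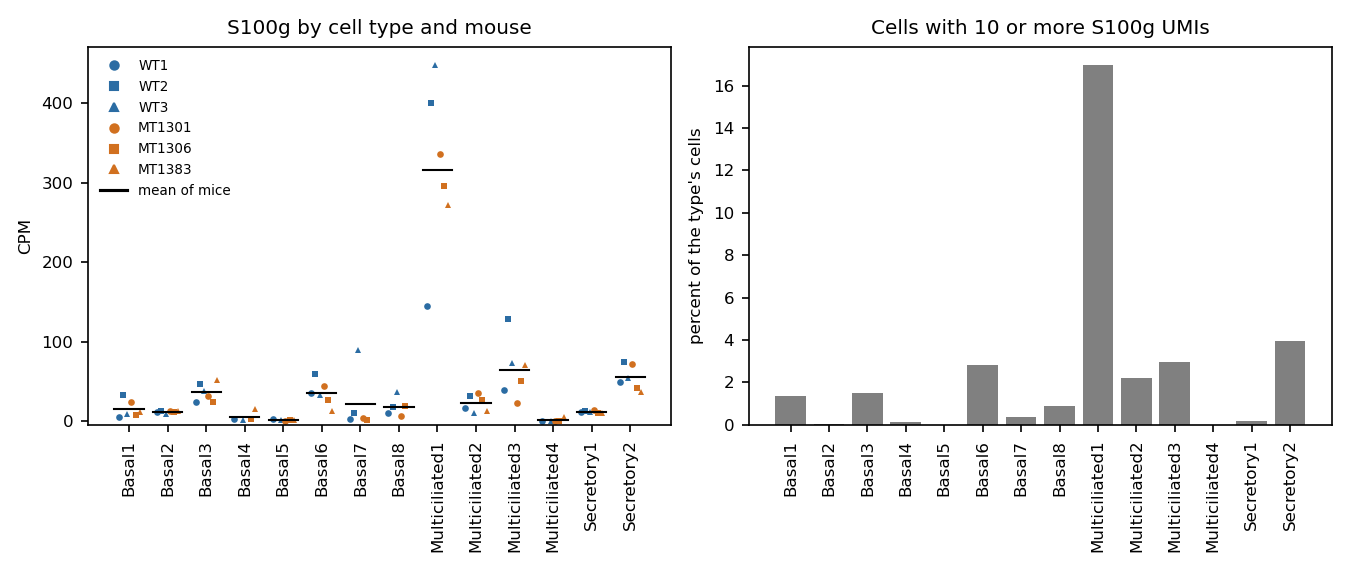
Left, S100g in CPM in each mouse with at least 20 cells of a type (blue WT/WT, orange MIS/MIS, black bar the mean of the mice); right, the percent of all cells of each type with 10 or more S100g UMIs. Multiciliated1, a type with both multiciliated and secretory markers, leads in both, with a mean of 316 CPM and 17.0% of cells. Multiciliated2, which also had both kinds of marker, had a mean of 22.1 CPM and 2.22% of cells.

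Other genes of epithelial calcium transport did not share this pattern by their levels. Trpv6, an apical calcium channel that works with S100g in the gut, had at most 4.51 CPM, in neuroendocrine cells. Vdr, the vitamin D receptor that drives S100g there, reached 10.0 CPM in Basal7. Atp2b1, a calcium pump of the plasma membrane, had 345.5 CPM in Basal8 and 10.4 CPM in Multiciliated4. The genes most like S100g were Pqlc3 (r = 0.79), Ccr2 (r = 0.79) and Syne2 (r = 0.77), lower values than those for S100a1.

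S100a7a, the mouse gene of the psoriasin group known from inflamed skin, was sparse, with 853 UMIs in 470 cells. Its levels in the basal cells turned on Basal1 and Basal4. In Basal4 it had 2.64 CPM in WT1, 25.4 in WT3, 1.35 in MT1306 and 4.87 in MT1383, and in Basal1 it had 15.7, 7.89 and 0.984 CPM in WT1, WT2 and WT3 and 2.77, 0.661 and 4.02 CPM in MT1301, MT1306 and MT1383. The type that led thus differed between mice. Multiciliated3 was lower but more even, from 1.09 to 2.41 CPM over the 6 mice. The single highest cell, in Basal4 of WT1, held 40 UMIs, and 367 of the 470 cells held 1. In Secretory1 0.494% of cells had a UMI, against 6.43% in Basal1 and 5.06% in Basal4; the median depths of these types were 33387, 28982 and 30257 UMIs.

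S100a8 and S100a9 were close to absent. S100a8 had 148 UMIs in 54 cells and S100a9 had 103 UMIs in 41 cells, and only 2 cells held both, of 93 with either. A Basal1 cell of MT1383 held 63 of the S100a8 UMIs, and another Basal1 cell, of WT3, held 18. Without that first cell, a setting chosen after seeing the data, the mean over the mice in Basal1 was 0.705 CPM in place of 1.49 CPM. For S100a9 the highest cells held 11 UMIs (Basal4 of WT3) and 10 UMIs (Multiciliated1 of WT1). Basal2 had no S100a9 in 2269 cells, which allows a share of up to 0.132% of cells with a UMI, and Basal8 had no S100a8 in 458 cells, which allows up to 0.655%. Of 9 leukocyte markers 8 were in the table, and 2 of these were widespread in the epithelium (Lyz2 at 823 CPM and Cd68 at 19.8 CPM over all cells). The defining marker Ptprc (CD45) had 22 UMIs and the neutrophil marker Ly6g had 38. Among the 93 cells with S100a8 or S100a9, 1 had a UMI of Ptprc and 0 had a UMI of Ly6g.

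The second question was whether the Dnaaf5 genotype moved these genes. UMIs were summed per mouse over the multiciliated, secretory or basal types and tested across all genes by limma-voom, with Benjamini-Hochberg adjustment. In a sum over cells, fewer cells of a state and less RNA per cell cannot be told apart. The level of Dnaaf5 was not used to check the labels, since a missense edit leaves the gene in place: in multiciliated cells it had 42.1, 38.2 and 49.4 CPM in WT/WT and 54.8, 54.9 and 49.3 CPM in MIS/MIS mice, which overlapped (log2 fold change 0.28, 95% interval 0.03 to 0.53, limma-voom adjusted p = 0.896).

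None of the 10 genes passed an adjusted p of 0.05 in any class. In multiciliated cells 8 members passed the filter on low counts (S100a8 and S100a9 did not), and over all 14206 genes the share called was 0.00704%, which was the gene Wdfy1, named after its values were seen. In secretory cells 7 members were tested (S100a7a, S100a8 and S100a9 were not), and the share called over 13610 genes was 0.00735%, again Wdfy1. In basal cells all 10 were tested and the share called over 14615 genes was 0.00%; 334 genes, 2.29%, had an unadjusted p under 0.05 by limma-voom. By limma-trend, chosen after seeing the data, 0 genes were called in basal cells as well. The median log2 fold change of the members, MIS/MIS over WT/WT, was -0.26 in multiciliated, -0.10 in secretory and -0.09 in basal cells, against 0.01, -0.00 and -0.01 over all genes tested. The number of members with a negative value was 6 of 8, 6 of 7 and 8 of 10, with no share over all genes set beside these counts. Many of these signs were unstable. Under some alternative the sign turned for S100a7a in multiciliated cells and for S100a10, S100a11, S100a16 and S100g in secretory cells. In basal cells it turned for S100a8, S100a9, S100a10, S100a11 and S100g.

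**Figure D4:**
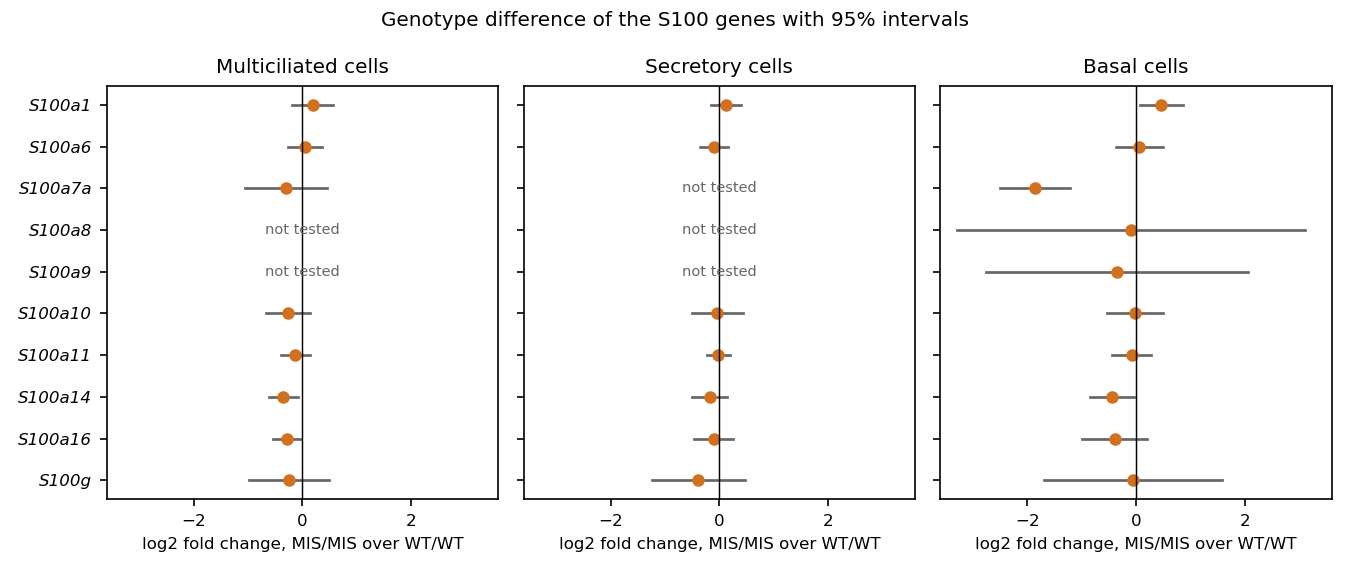
Log2 fold change of each S100 gene, MIS/MIS over WT/WT (points), with its 95% interval from limma-voom on sums per mouse (lines), in 3 cell classes with 3 mice per genotype. No gene passed the adjusted threshold; the basal value of S100a7a, -1.86, is the farthest from 0.

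In multiciliated cells S100a14 had 154.5, 144 and 141 CPM in the WT/WT mice and 138, 104 and 111 CPM in the MIS/MIS mice. The groups did not overlap. The log2 fold change was -0.35 (SE 0.12, limma-voom adjusted p = 0.896). S100a16 had 161, 185 and 148 CPM against 151, 126 and 134.5 CPM, and overlapped through MT1301 and WT3 (log2 fold change -0.28, SE 0.11, limma-voom adjusted p = 0.896). So 2 of the 8 members had an unadjusted p under 0.05 where 4.32% of all genes did, and 1 of 8 had no overlap where 10.0% of all genes did. Within Multiciliated3, the largest multiciliated type, S100a10 averaged 323.5 CPM ± 15.5 in WT/WT and 246 CPM ± 52.7 in MIS/MIS mice, S100a14 averaged 126 ± 1.88 against 101 ± 13.7 CPM and S100a16 averaged 124 ± 10.7 against 105.5 ± 4.49 CPM (SD, n = 3 each). Each of these 3 genes, of 8 members with enough UMIs there, was lower in every MIS/MIS mouse than in any WT/WT mouse, where 9.64% of all 13260 genes had no overlap, and none passed the adjusted test (adjusted p = 0.978 for each by limma-voom on this type alone). Among the 9 cell types with 20 cells in each mouse, each gene was without overlap in 1, Multiciliated3. In Multiciliated1 and Multiciliated2 the genotypes overlapped for all 3 genes. S100a1 and S100a6 differed by 0.19 (95% interval -0.19 to 0.56) and 0.05 (-0.27 to 0.36) on the log2 scale, S100a11 by -0.13 (-0.40 to 0.14) and S100g by -0.25 (-0.99 to 0.48). Single mice and settings moved these values: S100g was at -0.66 without WT1, -0.07 without WT2 and -0.03 without WT3, at -0.57 after thinning and at -0.45 under the stated cell filters. S100a11 was at -0.02 without WT1, and S100a1 at 0.03 without MT1306. The summed hillock markers of multiciliated cells were 64.5 to 303 CPM in WT/WT and 29.5 to 62.0 CPM in MIS/MIS mice, and the summed basal markers were 66.2 to 82.1 CPM and 26.0 to 57.0 CPM. The part of basal or hillock RNA in the S100a14 and S100a16 values was not tested.

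In basal cells the farthest member was S100a7a, with 2.86, 2.93 and 3.27 CPM in WT1, WT2 and WT3 and 0.785, 0.622 and 1.24 CPM in MT1301, MT1306 and MT1383. The counts behind these levels were 185, 140 and 169 UMIs against 49, 27 and 73 UMIs. The groups did not overlap, and the log2 fold change was -1.86 (SE 0.27, limma-voom adjusted p = 1.00), and its unadjusted p was the second lowest of the 14615 genes. The source of the UMIs differed among the WT/WT mice: 133 of the 140 in WT2 were in Basal1, and 146 of the 169 in WT3 were in Basal4. Without Basal4 the level of WT3 was 0.501 CPM, below all 3 MIS/MIS mice (0.785, 0.553 and 1.20 CPM), and the log2 fold change was -0.94 (limma-voom adjusted p = 0.999). With equal numbers of cells per mouse of each basal type except Basal4 and Basal5 it was -0.67 (limma-voom adjusted p = 0.996). Those types were left out there because some mice had too few of their cells. In the basal types other than Basal1 and Basal4 the direction turned, with 0.211, 0.227 and 0.236 CPM in WT/WT mice and 0.244, 0.522 and 0.357 CPM in MIS/MIS mice. These last values rest on 5, 7 and 7 against 12, 16 and 16 UMIs.

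**Figure D5:**
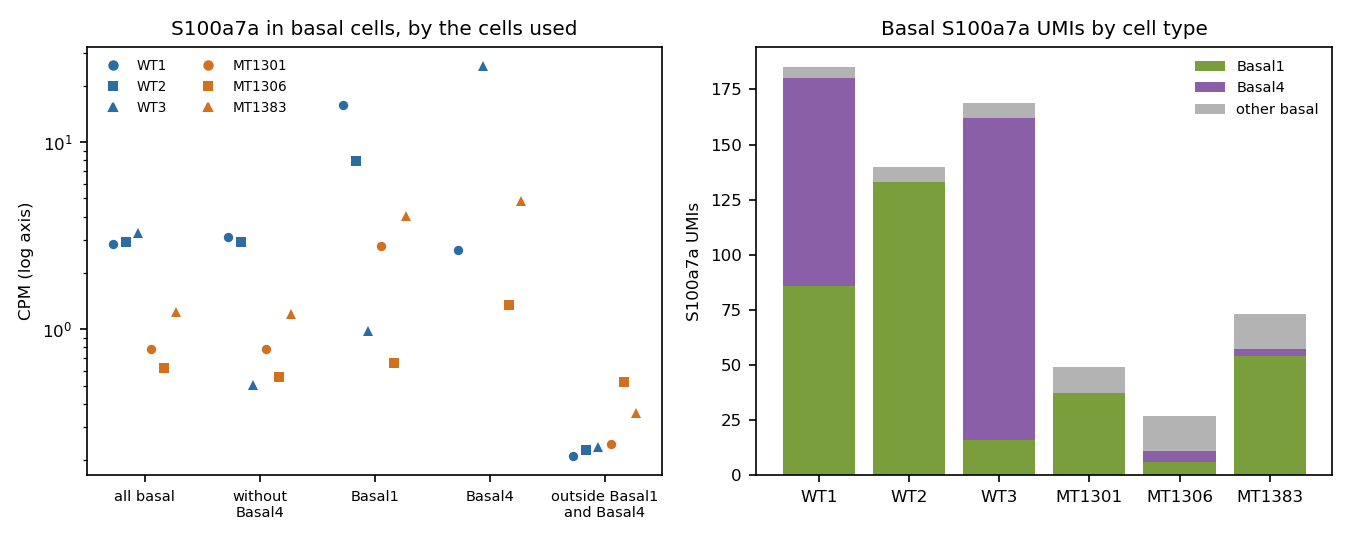
Left, S100a7a in CPM (log axis) in each mouse over all basal cells, without Basal4, in Basal1, in Basal4 (4 mice with at least 20 cells) and in the other basal types; right, the S100a7a UMIs of the basal cells of each mouse by type. The WT/WT mice (blue) lie above the MIS/MIS mice (orange) over all basal cells, but WT3 falls to 0.501 CPM without Basal4.

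S100a14 was also lower without overlap in basal cells, at 723, 485 and 598 CPM in WT/WT and 458.5, 467 and 433 CPM in MIS/MIS mice (log2 fold change -0.45, SE 0.17, limma-voom adjusted p = 1.00). S100a1 was higher on average, at 201, 258 and 188 CPM against 354, 319 and 252 CPM, with overlap of WT2 and MT1383 (log2 fold change 0.46, SE 0.17, limma-voom adjusted p = 1.00). Thus 3 of the 10 members had an unadjusted p under 0.05 where 2.29% of genes did, and 2 of 10 had no overlap where 7.96% of genes did. Basal4, which made up 1048 of 1834 basal cells in WT1 but 2 of 1898 in WT2, moved these values: without it the log2 fold change was -0.20 for S100a14 (limma-voom adjusted p = 0.999), 0.21 for S100a1 and -0.03 for S100a16, which had been -0.40. Without WT1 the value was -0.26 for S100a14 and -0.14 for S100a16. The hillock marker sum in basal cells was 8496, 325 and 2925 CPM in WT/WT and 507, 1096 and 588 CPM in MIS/MIS mice. Within Basal1, S100a1 averaged 195 CPM ± 71.1 in WT/WT and 332 CPM ± 68.6 in MIS/MIS mice (SD, n = 3 each), without overlap. That was 1 of 9 members with enough UMIs in Basal1, where 12.6% of 12655 genes had no overlap. In Basal2, Basal3 and Basal6 the S100a1 levels of the genotypes overlapped. The WT/WT and MIS/MIS means were 299 and 304 CPM in Basal2, 207 and 198 CPM in Basal3, and 212 and 213 CPM in Basal6. S100a1 was without overlap in 1 of the 9 cell types compared in this way, which was Basal1. S100a8 in basal cells rested on 72 UMIs in MT1383 against 2 to 25 in the other mice, and its 95% interval ran from -3.30 to 3.11.

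In secretory cells 0 of the 7 members had an unadjusted p under 0.05, where 1.90% of all genes did, and 0 of 7 had no overlap, where 5.50% of genes did. The widest interval was that of S100g, with a log2 fold change of -0.39 (95% interval -1.24 to 0.47), and the narrowest that of S100a11, at -0.02 (-0.23 to 0.20). S100a14 differed by -0.18 (-0.51 to 0.15), and by -0.02 without MT1383 or -0.30 without MT1301.

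The difference of the genotype effect between classes was tested in a fit over all sums with a term for each mouse. The share called was 0.00% of 15942 genes for basal against multiciliated cells and 0.00% for secretory against multiciliated cells, with no member past the threshold. The member with the lowest p was S100a7a, basal minus multiciliated, at -1.38 (95% interval -2.63 to -0.13, limma-voom adjusted p = 0.978). The shares of cells with a UMI, after thinning to 5000 UMIs, gave no adjusted p under 0.75 in 30 pairs of member and class by exact permutation, where the smallest p that 3 against 3 mice allow is 0.1. Of these, S100a1 in basal cells went from 50.9% ± 8.67 to 65.4% ± 2.96 (SD, n = 3 each; two-sided exact permutation p = 0.1, adjusted p = 0.75). The same permutation p of 0.1 was given by S100a7a (0.786% to 0.371%) and S100a11 (99.6% to 99.97%) in basal cells. S100a16 in multiciliated cells (49.3% to 44.8%) gave it as well. Without thinning, S100a1 in basal cells went from 86.4% to 93.5% (two-sided exact permutation p = 0.2).

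Over all cells of a culture, S100a1 had 446, 481 and 424 CPM in WT1, WT2 and WT3 and 563, 669 and 556 CPM in MT1301, MT1306 and MT1383. S100a7a had 2.02, 1.23 and 1.84 CPM against 0.578, 0.644 and 0.815 CPM. These were the 2 of 10 members without overlap, in opposite directions, where 11.7% of 16535 genes had none. The cultures held 332, 582 and 450 multiciliated cells of 2842, 4844 and 2771 in the WT/WT mice, and 653, 651 and 2155 of 4031, 2673 and 6710 in the MIS/MIS mice, and the part of these numbers in the levels was not tested.

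Related gene lists were set beside the members. Apart from the most abundant members of a list, the genes named from them were chosen after their values were seen. Of 10 other S100 family genes 7 were in the table and 5, 5 and 6 were tested in multiciliated, secretory and basal cells, with 0 past the threshold in each. S100a3, whose annotation encloses S100a2 so that their reads cannot be told apart with certainty, was highest in Basal4 at 63.6 CPM, and S100b reached 19.0 CPM in Multiciliated4. All 12 annexins were in the table, and 0 of 11, 12 and 12 tested passed. Anxa3 was the member of that list with an unadjusted p under 0.05, in basal cells, with 704 CPM ± 48.2 in WT/WT and 828 CPM ± 39.5 in MIS/MIS mice (SD, n = 3 each; limma-voom adjusted p = 1.00). The 3 most abundant annexins in basal cells were Anxa1, Anxa2 and Anxa3. For the receptors and enzymes tied to calprotectin signalling, 0 of 8, 8 and 9 passed, and 3, 1 and 2 had an unadjusted p under 0.05, where 4.32%, 1.90% and 2.29% of all genes did. All were lower in MIS/MIS mice but Bsg (basigin), which was higher without overlap in basal cells, at 1410 CPM ± 94.9 against 1167 ± 112 (SD, n = 3 each; limma-voom adjusted p = 1.00). Ly96 (MD-2, the partner of Tlr4) was lower without overlap in all 3 classes, where 10.0%, 5.50% and 7.96% of all genes had none: it had 33.8 CPM ± 6.65 against 26.6 ± 1.62 in multiciliated, 46.2 ± 3.16 against 38.5 ± 2.55 in secretory and 42.7 ± 3.34 against 36.3 ± 2.36 in basal cells (SD, n = 3 each; limma-voom adjusted p = 0.896, 1.00 and 1.00). Of the calcium transport genes 0 of 8 passed in each class. Of the fused S100-type genes, large proteins with an S100 domain that build hair and skin barriers, 0 of 1, 1 and 3 passed. In basal cells Tchh (trichohyalin) had 8.13 CPM ± 0.455 against 5.98 ± 0.374 (SD, n = 3 each; limma-voom adjusted p = 1.00). Of 22 cornified envelope genes, most of which lie on chromosome 3 in the same stretch as the S100 genes (the transglutaminases Tgm1 and Tgm3 do not), 17 were in the table. Of the 16 tested in basal cells 15 had a log2 fold change below 0, with a median of -0.88. In multiciliated cells 6 of 6 were below 0, with a median of -0.81, and in secretory cells 8 of 10, with a median of -0.39. The medians over all genes tested were -0.01 in basal, 0.01 in multiciliated and -0.00 in secretory cells. In each class 0 genes of the list passed. Tgm3 (170 CPM) and Sprr3 (71.1 CPM) were highest in Basal4, the type that the mice held in uneven numbers, and its part in these values was not tested.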

How the data were processed

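Whole UMI counts per gene and cell were used as deposited. Per the labels and the study's methods, the authors made them with Cell Ranger from 3′ libraries (version 7.1.0 in the submitters' processing notes) on mm10, removed cells by gene number and mitochondrial share in Seurat, and annotated clusters by hand; those types were used here, and no doublet caller was run. The deposited cells still held 655 with over 7500 genes, the stated upper limit, and these were kept except in 1 alternative. Both deposited tables separate their columns by a literal character pair, so their unit was recorded as other, and the planned count-model fits were replaced by limma-voom. Each mouse was the replicate. The limma-voom p-values of a class set the difference between genotypes against the spread among mice of the same genotype, with that spread estimated partly across genes.

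Levels are CPM over all UMIs of a mouse in a type, for mice with at least 20 cells. For genotype, UMIs were summed per mouse and class, genes with 10 counts in a library of median size in 3 mice and 15 in all were kept, and limma 3.58.1 (R 4.3.3) with voom and TMM scaling was fitted across all genes, with Benjamini-Hochberg adjustment at 0.05. The code was tested on simulated data. Shares of cells with a UMI were taken after thinning each cell to 5000 UMIs, which dropped 0 cells, and compared by exact permutation. Likeness is Pearson's r of log2(CPM + 1) over 16 types. Intervals for pooled levels are exact Poisson intervals and, like the limits for a count of 0 (3 counts), cover counting error only. Promoters came from RefSeq and gene positions from GENCODE M21, both on GRCm38.

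Named were all 10 genes, Dnaaf5, some of the genes most similar to a member, and some genes of the lists. List genes outside the 3 most abundant of a list were chosen after their values were seen. The members and lists were chosen with earlier results of these data known. Alternatives were another scaling, other count filters, leaving out each mouse or single types, thinning, the stated cell filters and equal composition of types. For basal cells the equal composition left out Basal4 and Basal5.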

Additional observations from a re-analysis of the deposited data

How the results depend on the processing

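No paired analysis was possible because the numbers of the MIS/MIS mice match no number of the WT/WT mice. The planned edgeR and DESeq2 alternatives were not run. Under the alternatives 473 values stayed the same, 39 changed direction and 13 moved, and no S100 gene passed the adjusted threshold under any of them. A fold change stayed the same if it kept its direction and side of the threshold, and a share of cells if it kept its direction. A mean level had to stay within its SD over mice, and a count of genes or of leading types within a set factor. The count of genes higher in MIS/MIS secretory cells was 1 in the report, 0 with upper-quartile scaling and 0 to 0 when each mouse was left out. In multiciliated cells 1 gene was lower after thinning, and 2 genes were higher and 1 lower in Multiciliated3 alone. In basal cells 1 gene was higher with equal composition of types.

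Main values of genes that changed direction lay between -0.39 and 0.06 for levels. After thinning the log2 fold change was 0.011 for S100a11 in secretory, 0.016 for S100a10 in basal and 0.071 for S100g in basal cells. In secretory cells S100a10 was at 0.02 with equal composition and 0.057 in Secretory1 alone, and S100a11 was at 0.004 in Secretory1 alone. Without Basal6, S100g was at 0.052 and S100a8 at 0.171 in basal cells. Leaving out each mouse gave -0.067 to 0.146 for S100a6 and -0.453 to 0.069 for S100a7a in multiciliated cells. In secretory cells it gave -0.169 to 0.206 for S100a10, -0.072 to 0.064 for S100a11, -0.219 to 0.065 for S100a16 and -0.765 to 0.021 for S100g. In basal cells it gave -0.11 to 0.22 for S100a6, -1.477 to 0.729 for S100a8, -1.114 to 0.588 for S100a9, -0.23 to 0.156 for S100a10, -0.218 to 0.061 for S100a11 and -0.841 to 0.555 for S100g. Without thinning, the difference in the share of cells (percentage points, MIS/MIS minus WT/WT) was -0.844 for S100a7a and -0.4275 for S100a8 in multiciliated, 0.1033 for S100a16 in secretory, and 0.03667 for S100a6, 0.44 for S100a16 and 0.396 for S100g in basal cells. The cause was not tested. The basal S100a7a adjusted p ranged from 0.3857 to 1.0. Depth limits S100a7a, S100a8 and S100a9, whose UMIs in a class were often under 10 per mouse.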
